A study of Mus musculus with 39 samples.

Results

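The SoxB genes Sox1, Sox2, Sox3, Sox14 and Sox21 were examined for binding of NOTCH and of its DNA-binding partner RBPJ in the embryonic mouse cortex. A binding peak was assigned to a SoxB gene when the nearest start site of any protein-coding gene, on the mouse build mm10 (GRCm38), belonged to one of these 5 genes. Of 20809 nuclear consensus peaks, 39 met this rule: 23 for Sox2, 7 for Sox1, 4 for Sox3, 4 for Sox21 and 1 for Sox14. Nearest distance is a convention of annotation and does not show that a peak acts on the gene.

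SOX proteins bind DNA through an HMG box. SOX1, SOX2 and SOX3 form the SOXB1 group, transcriptional activators that keep neural progenitors undifferentiated and that largely overlap in function, whereas SOX14 and SOX21 form the SOXB2 group, which are mainly repressors and counter SOXB1 activity. In the cortex, SOX2 marks radial glial cells (RGCs), the stem cells of the ventricular zone, and falls as these cells give rise to intermediate progenitors (IPCs) and neurons. When a Notch receptor is activated its intracellular domain (NICD) enters the nucleus and joins RBPJ, which recognises sites around the core TGGGAA.

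Binding was measured by Targeted DamID (TaDa), in which a Dam methylase fused to the protein of interest marks GATC sites near where the fusion is bound. Plasmids were electroporated into MF1 wild-type embryos at E13.5 and the cortex was taken at E14.5. The Hes5 promoter drove the fusions in RGCs and the Tα1 promoter in IPCs, so the cell types are defined by promoter activity, and peak positions give no marker with which to check them. In RGCs, RBPJ was profiled in 3 samples as human RBPJ1 and Notch in 4 samples, 2 with mouse NICD and 2 with mouse NdECD, a form without the extracellular domain. In IPCs, RBPJ was profiled in 3 samples as human RBPJ1 and Notch in 4 samples, all with mouse NICD. Dam-only, the untethered methylase, was profiled in 5 RGC samples and 4 IPC samples. The labels tie 4 of the 5 RGC samples, and all 4 IPC samples, to the profiles of both proteins in that cell type, so the lists of a cell type share controls. All fusions, NICD in IPCs included, were introduced from plasmids and added to whatever endogenous protein the cells held.

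The peaks of each cell type and protein were available as 1 pooled list with positions only, without height or any value per sample. SoxB genes took 31 of 14097 nuclear peaks of the RGC RBPJ list, 8 of 3702 of RGC Notch, 5 of 5497 of IPC RBPJ and 11 of 2157 of IPC Notch. Sequencing depth, the spread between samples and any test between conditions are therefore out of reach, and every comparison here is a description. Overlapping peaks of the 4 lists had been merged by the authors into consensus peaks and sorted into 8 k-means clusters by binding intensity. Clusters 2, 6 and 7 stand for regions with both proteins in both cell types, cluster 4 for both proteins in RGCs, cluster 1 for Notch alone in RGCs, clusters 5 and 8 for RBPJ alone in RGCs and cluster 3 for RBPJ alone in IPCs. A cluster therefore rests on intensity over the whole region, whereas a list records whether a peak was called there. Wilson intervals at 95% are given for shares and cover counting error over peaks only, and peaks that share a locus are not independent.

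To show the DNA under the peaks nearest to the genes, 5 stretches of 150 bases are printed. Each comes from a peak within 10 kb of a start site, outside annotated exons. No such window of its peak held more RBPJ core words, but where the stretch holds 1 word, other windows held as many. All are written 5′ to 3′ on the plus strand of GRCm38, with the core words TTCCCA or TGGGAA in capitals.
Sox2, peak over the start site, chr3:34649304-34649453: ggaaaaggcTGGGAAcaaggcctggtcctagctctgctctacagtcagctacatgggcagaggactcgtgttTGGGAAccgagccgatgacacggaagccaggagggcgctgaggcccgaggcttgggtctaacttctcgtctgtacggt
Sox2, upstream peak, chr3:34641658-34641807: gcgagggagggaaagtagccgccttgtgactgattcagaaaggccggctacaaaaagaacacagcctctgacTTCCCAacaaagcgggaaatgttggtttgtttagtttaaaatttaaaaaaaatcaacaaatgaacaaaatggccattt
Sox1, peak over the start site, chr8:12395073-12395222: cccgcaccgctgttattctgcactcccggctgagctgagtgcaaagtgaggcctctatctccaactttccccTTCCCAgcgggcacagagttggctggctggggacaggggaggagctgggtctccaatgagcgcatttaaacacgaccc
Sox3, upstream peak, chrX:60895644-60895793: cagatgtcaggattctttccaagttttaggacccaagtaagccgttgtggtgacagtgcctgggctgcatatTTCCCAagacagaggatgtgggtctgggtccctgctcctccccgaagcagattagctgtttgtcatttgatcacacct
Sox21, downstream peak, chr14:118230140-118230289: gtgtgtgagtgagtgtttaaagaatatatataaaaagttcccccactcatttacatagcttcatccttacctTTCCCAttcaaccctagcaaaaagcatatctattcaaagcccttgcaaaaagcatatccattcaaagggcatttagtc

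Only the Sox2 start-site stretch held 2 core words, both on the minus strand; the other 4 held 1 each. The stretches were picked for their words, so these numbers follow from the choice. Windows of 150 bases cut without such a choice from all consensus peaks, 299600 in number, held at least 1 word in 15.6% of cases and at least 2 in 1.28%. The Sox2 start-site stretch lay under an RGC RBPJ peak alone, and the upstream Sox2 stretch under RBPJ peaks of both cell types. The Sox1 stretch lay under RBPJ and Notch peaks of RGCs, the Sox3 stretch under an RGC RBPJ and an IPC Notch peak, and the Sox21 stretch under RBPJ and Notch peaks of IPCs.

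A gene with few neighbours takes more peaks by distance alone, so the counts were set against the length of sequence nearest to each gene. Together the SoxB genes were the nearest protein-coding genes for 1.72 Mb of sequence, which held 22.7 consensus peaks per Mb (95% Poisson interval 16.1 to 31.0), against 7.63 per Mb over all protein-coding genes. Consensus peaks covered 6.20% of these stretches, against 1.71% over all genes. Sox21 had 61.6 peaks per Mb in a stretch of 64.9 kb and Sox1 47.6 per Mb in 147 kb, followed by Sox2 with 27.5 per Mb in 836 kb and Sox3 with 13.49 per Mb in 296 kb. Sox14 had 2.68 per Mb in 372 kb. With so few peaks the intervals of Sox21 (16.8 to 158), Sox1 (19.1 to 98.0), Sox2 (17.4 to 41.3), Sox3 (3.68 to 34.5) and Sox14 (0.068 to 15.0) all overlapped their neighbours in this order. Those of Sox3 and Sox14 held the 7.63 per Mb over all genes, so the higher pooled density was not shown for these genes by themselves.

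Sox2 (ENSMUSG00000074637, chr3:34650405-34652461, plus strand) ranked 19 among all protein-coding genes by number of consensus peaks. It was nearest to 23 peaks where the median gene with any peak had 1. RGC RBPJ was called at 20 of the 23 (87.0%, interval 67.9 to 95.5, against 67.6% of all consensus peaks). RGC Notch was called at 4 (17.4% against 17.7%), IPC RBPJ at 3 (13.0% against 26.2%) and IPC Notch at 5 (21.7% against 10.1%). The intervals of RGC Notch, IPC RBPJ and IPC Notch held the value over all consensus peaks. The Sox2 peaks ran from 217 kb upstream to 504 kb downstream, with 8 upstream, 1 over the start and 14 downstream, and 17 lay over 100 kb away. The 10 peaks from the farthest upstream to the one just past the gene all had their midpoints in introns of Sox2ot, the long non-coding transcript that spans Sox2 on the same strand (chr3:34104270-34682619), and the next one, 28.0 kb downstream, had its midpoint on an exon of it.

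**Figure D1:**
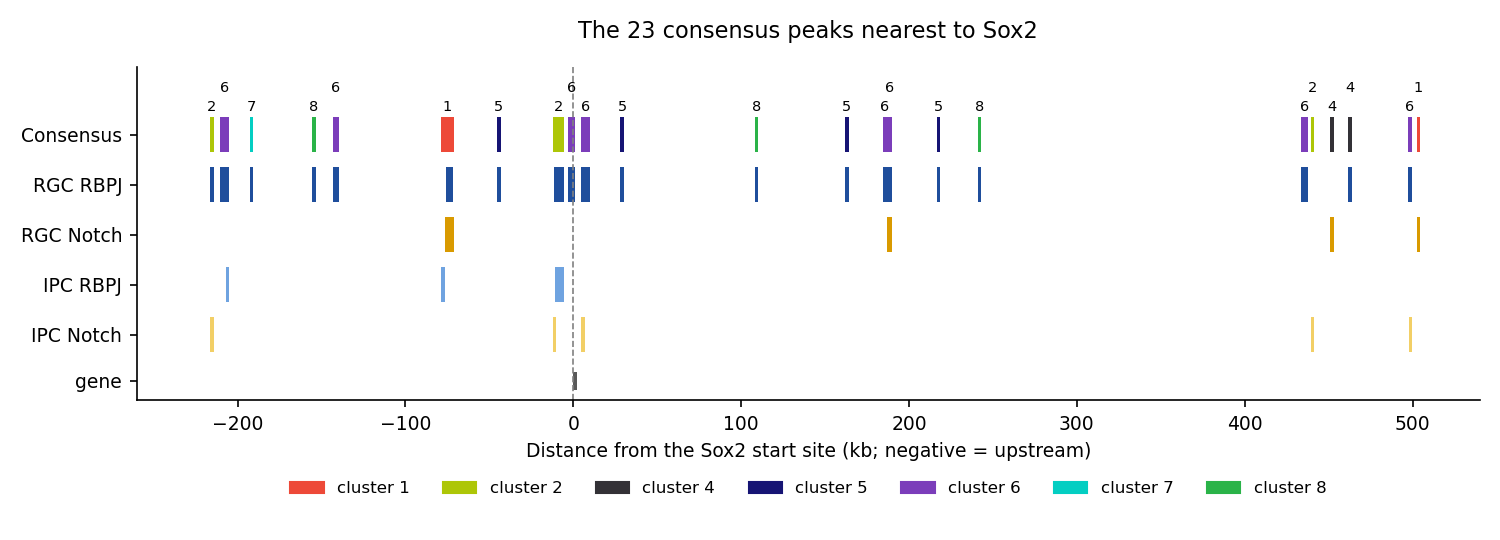
Map of the 23 consensus peaks nearest to Sox2, with distance from the start site in kb on the horizontal axis, consensus peaks coloured and numbered by k-means cluster, and the called peaks of each list in the rows below (peaks under 2.2 kb are drawn 2.2 kb wide). RGC RBPJ peaks occur throughout, RGC Notch peaks at 4 places and IPC peaks at 7 consensus peaks, and no peak falls between 242 and 434 kb downstream.

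Close to Sox2, 3 wide regions were bound, and IPC calls flanked the start site on both sides. The upstream region (chr3:34638547-34645091, 5.31 kb from the start, cluster 2) was called for RGC RBPJ over 6.46 kb, for IPC RBPJ over 4.83 kb and for IPC Notch over 1.21 kb. Both IPC peaks fell on the RGC RBPJ peak, but they shared no base with each other: IPC Notch ended at -10.653 kb and IPC RBPJ began at -10.64 kb. Signal is resolved only to fragments between GATC sites, so gaps or overlaps this small do not separate sites of binding. The region over the start site (chr3:34647096-34651625, -3.31 to 1.22 kb, cluster 6) was called for RGC RBPJ only. The region downstream of the gene (chr3:34654916-34660261, 4.51 to 9.86 kb, cluster 6) was called for RGC RBPJ, with an IPC Notch peak of 1000 bp that lay wholly within it. RGC Notch was not called at any of the 3.

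RGC Notch instead met RGC RBPJ at a pair of more distant regions. At chr3:34571556-34579236, 71.2 kb upstream (cluster 1), the RGC RBPJ peak lay wholly inside the RGC Notch peak, between -76.4 and -71.2 kb. An IPC RBPJ peak from -78.8 to -76.3 kb adjoined them and overlapped the RGC Notch peak by 43 bp and the RGC RBPJ peak by 0 bp, so the consensus peak joined neighbouring rather than coincident calls of RBPJ. At chr3:34837550-34840203, 187 kb downstream (cluster 6), the RGC RBPJ peak again lay wholly inside the RGC Notch peak.

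Another 3 distant Sox2 regions carried an RGC RBPJ peak together with an IPC peak. At chr3:34433770-34436116, 214 kb upstream (cluster 2), an IPC Notch peak of 0.315 kb lay inside an RGC RBPJ peak of 2.35 kb. At chr3:34440031-34445427, 205 kb upstream (cluster 6), 99.02% of the IPC RBPJ peak lay on the RGC RBPJ peak. At chr3:35147681-35149914, 497 kb downstream (cluster 6), 97.7% of the IPC Notch peak did. The remaining Sox2 regions were called in 1 list each: 12 in RGC RBPJ besides the start site, 2 in RGC Notch and 1 in IPC Notch. These 3 Notch regions lay at 440 kb (IPC Notch, cluster 2), 451 kb (RGC Notch, cluster 4) and 503 kb downstream (RGC Notch, cluster 1), and the last, chr3:35153186-35154477, was the farthest Sox2 region of all.

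Sox1 (ENSMUSG00000096014, chr8:12395295-12400126, plus strand), a SOXB1 gene of early neural progenitors, had the widest SoxB region, and it lay over the start site. This region (chr8:12388236-12396671, 8.44 kb, cluster 4) was called for RGC RBPJ from -7.06 to 0.973 kb and for RGC Notch from -1.65 to 1.38 kb, with 86.7% of the Notch peak on the RBPJ peak, and held 11 core words. The region next to it upstream (chr8:12384194-12386316, 8.98 kb from the start, cluster 2) was called for both proteins in IPCs and for neither in RGCs, and held 0 core words. Next to the Sox1 start the RGC and IPC calls were thus adjacent and not shared.

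Farther from Sox1, IPC Notch was called at chr8:12339360-12340363, 54.9 kb upstream (cluster 2), around an RGC RBPJ peak of 0.438 kb, and at chr8:12426973-12429344, 31.7 kb downstream (cluster 5), where 96.3% of it lay on an RGC Notch peak. The latter was the only SoxB region called for Notch in both cell types, and no RBPJ peak was called there. RGC RBPJ alone was called at the nearest region downstream (chr8:12403048-12405416, 7.75 kb, cluster 5), at 56.8 kb upstream (cluster 5) and at the farthest region (chr8:12481156-12482471, 85.9 kb downstream, cluster 7). The non-coding transcript Sox1ot (chr8:12385771-12436768) contained 3 of the 7 regions and touched 4.

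Sox3 (ENSMUSG00000045179, chrX:60891366-60893430, minus strand), the X-linked SOXB1 gene, had no region over its start and no IPC RBPJ call. Its nearest region (chrX:60895285-60898868, 1.86 kb upstream, cluster 6) was called for RGC RBPJ over 3.53 kb and for IPC Notch over 1.56 kb, and 96.5% of the IPC Notch peak lay on the RGC RBPJ peak. The same pair of lists met at its farthest region (chrX:60825219-60826696, 66.7 kb downstream, cluster 2), with 94.8% of the shorter peak shared. RGC RBPJ alone was called at chrX:60902358-60903261, 8.93 kb upstream (cluster 5), and RGC Notch alone at chrX:60829960-60832249, 61.2 kb downstream (cluster 5), the nearest downstream region.

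Sox21 (ENSMUSG00000061517, chr14:118233232-118237030, minus strand), a SOXB2 gene that is expressed in neural progenitors, differed from Sox2 in the calls nearest to its start. Its nearest region (chr14:118228766-118235204, 1.83 to 8.26 kb downstream, cluster 6) covered the end of the gene and the sequence beyond it. IPC RBPJ was called over all 6.44 kb of it and IPC Notch over 2.98 kb within that, and it was in neither RGC list. RGC calls began farther out: RGC Notch alone at chr14:118249401-118252997, 12.4 kb upstream (cluster 8), and RGC RBPJ alone at chr14:118209634-118213984, 23.05 kb downstream (cluster 5), and at the farthest region, chr14:118201027-118202110, 34.9 kb downstream (cluster 8). The upstream region was almost as near to another gene, at 14.0 kb from Gm9376. In all, 23.8% of the stretch assigned to Sox21 lay in consensus peaks, against 7.12% for Sox2, 13.6% for Sox1 and 2.79% for Sox3.

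Sox14 (ENSMUSG00000053747, chr9:99874106-99876170, minus strand), the other SOXB2 gene, is known from subsets of subcortical neurons. Its single region (chr9:100045128-100048395, cluster 1) lay 169 kb upstream, was called for RGC RBPJ only and held 0 core words. Peaks covered 0.877% of the sequence assigned to it.

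**Figure D2:**
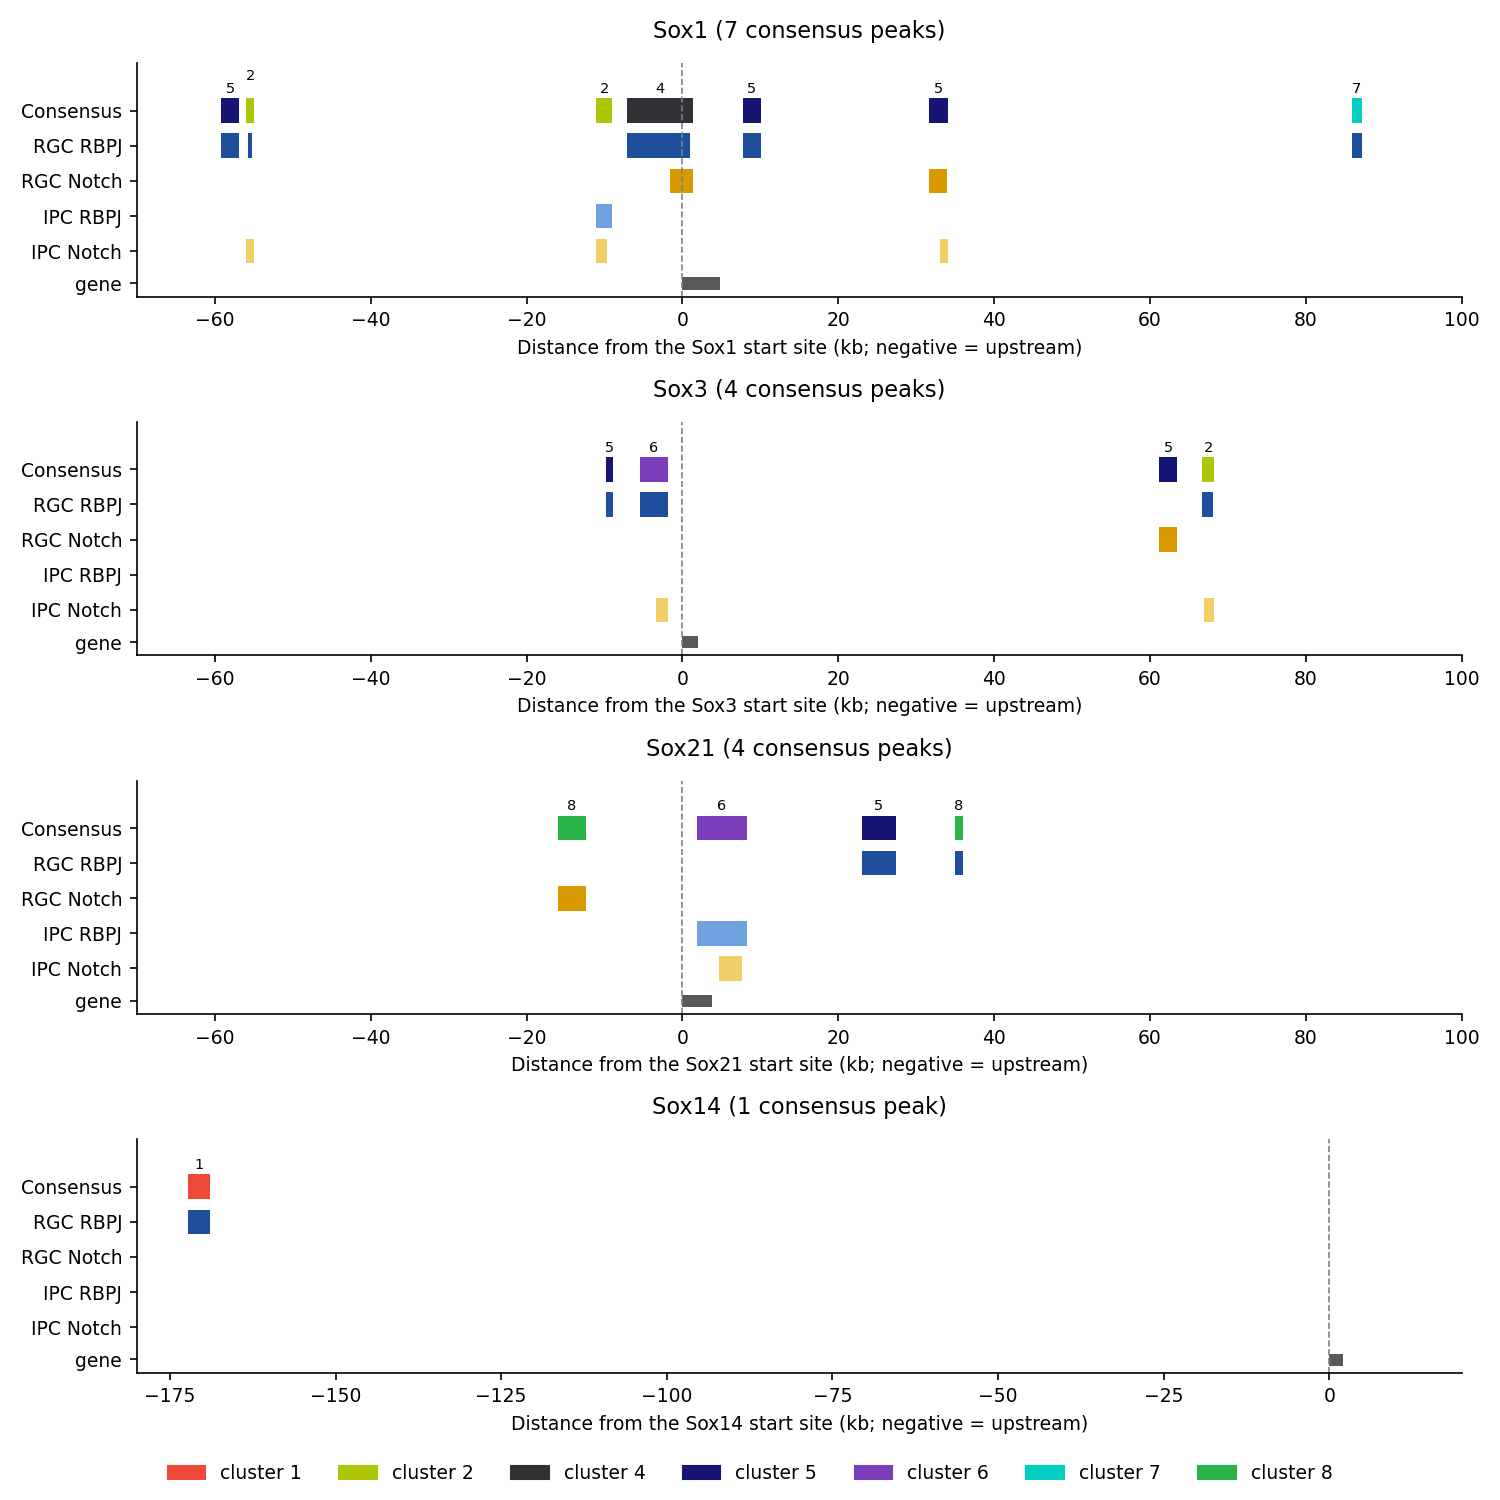
Maps of the consensus peaks nearest to Sox1, Sox3, Sox21 and Sox14, drawn as distance from each start site in kb in the direction of transcription, with cluster numbers above the consensus peaks and the called peaks of the 4 lists below (peaks under 0.5 kb are drawn 0.5 kb wide). The region nearest to Sox21 and the region 8.98 kb upstream of Sox1 are called for both proteins in IPCs and in neither RGC list.

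Across the 39 SoxB regions, RGC RBPJ was called at 31, or 79.5% (64.5 to 89.2), where 67.6% of all consensus peaks were. RGC Notch was called at 8, or 20.5% (10.8 to 35.5), against 17.7%. IPC RBPJ was called at 5, or 12.8% (5.60 to 26.7), against 26.2%, and IPC Notch at 11, or 28.2% (16.54 to 43.8), against 10.1%. In the pooled counts the order of the IPC lists was thus turned. IPC Notch calls outnumbered IPC RBPJ calls at SoxB regions, whereas over all consensus peaks IPC RBPJ calls were the more frequent. This did not hold at each gene: at Sox21 each list had 1 call and at Sox14 each had 0. The 26.2% also lay inside the IPC RBPJ interval. Calls in any IPC list were made at 13 regions, or 33.3% (20.6 to 49.0), close to the 33.9% of all consensus peaks. By gene, 30.9% of 21938 protein-coding genes had an RGC RBPJ region, 11.5% an RGC Notch region, 16.2% an IPC RBPJ region and 6.91% an IPC Notch region, and 5, 4, 3 and 4 of the 5 SoxB genes did, in the same order. A gene with more regions has more chances to be counted in each list.

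**Figure D3:**
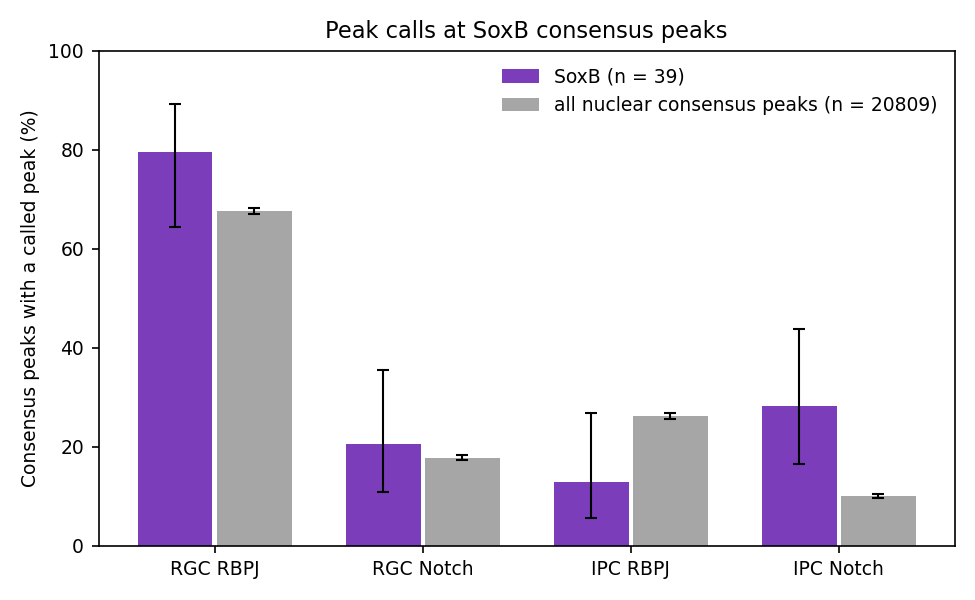
Share of consensus peaks with a called peak of each list, in percent, for the 39 SoxB consensus peaks and for all 20809 nuclear consensus peaks, with Wilson 95% intervals that cover counting error over peaks. The IPC Notch bar of SoxB stands at 28.2% against 10.1%, and the IPC RBPJ bar at 12.8% against 26.2%.

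Lists of different cell types have separate Dam-only controls. Of the 11 SoxB regions with an IPC Notch peak, 7 also had an RGC RBPJ peak, or 63.6%, near the 53.7% over all consensus peaks. Those 7 made up 22.6% of the 31 SoxB regions called for RGC RBPJ, against 8.02% over all. They comprised 4 regions of Sox2, 2 of Sox3 and 1 of Sox1. IPC Notch met RGC Notch at 1 region, which is 9.09% of the IPC Notch and 12.5% of the RGC Notch regions at SoxB genes, against 23.5% and 13.4% over all consensus peaks. IPC RBPJ met RGC RBPJ in 3 consensus peaks, or 60% of the 5 regions called for IPC RBPJ and 9.68% of those called for RGC RBPJ, against 26.1% and 10.1% over all. At 1 of the 3, 71.2 kb upstream of Sox2, the called peaks themselves did not touch.

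SoxB regions were called in 2 or more lists at 14 of 39, or 35.9% (22.7 to 51.6), against 17.1% of all consensus peaks. Lists of the same cell type share controls, so part of any such overlap can come from the shared Dam-only samples, and its size was not tested. Requiring a list peak to cover at least 50% of the consensus peak left 15.4% of SoxB regions in 2 or more lists, against 11% of all consensus peaks under the same rule, and an IPC Notch share of 12.8% (5.60 to 26.7), against 6.78%. Both backgrounds lay inside the intervals of the SoxB shares. Under this rule IPC RBPJ was called at 7.69% of SoxB regions (2.65 to 20.3), an interval that overlapped that of IPC Notch. IPC Notch peaks at SoxB genes had a median width of 1206 bp and RGC RBPJ peaks 2328 bp, so that several IPC Notch peaks took up a small part of a wide RGC RBPJ peak.

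Of the 14 SoxB regions called in 2 or more lists, 6 lay within 10 kb of a start site. They were 66.7% of the 9 SoxB regions in that range, against 18.9% of all consensus peaks there. The 9 regions had a median width of 4530 bp, against 2058 bp for all consensus peaks within 10 kb of a start site. RGC RBPJ was called at 7 (77.8% against 66.8% of all consensus peaks in this range) and IPC RBPJ at 3 (33.3% against 27.3%). IPC Notch was called at 5 (55.6% against 9.58%) and RGC Notch at 1 (11.1% against 19.3%). Among the 12 regions at 10 to 100 kb, 4 were called in 2 or more lists (33.3% against 15.5%). There, RGC RBPJ was called at 9 (75% against 67.4%) and IPC RBPJ at 1 (8.33% against 26.0%). RGC Notch was called at 4 (33.3% against 16.7%) and IPC Notch at 3 (25% against 10.03%). Among the 18 regions over 100 kb away, RGC RBPJ was called at 15 (83.3% against 69.4%) and IPC RBPJ at 1 (5.56% against 24.6%). RGC Notch was called at 3 of these (16.7% against 16.8%) and IPC Notch at 3 different ones (16.7% against 11.04%). The median width was 1449 bp against 1777 bp. Wider regions have more room for calls of several lists, and the part of width in these counts was not tested. SoxB regions were also farther out than most: 46.2% lay over 100 kb from the start, against 22.7%, and 5.13% covered a start site, against 16.6%. The median distance was 71.2 kb, and 27.4 kb without Sox2, against 21.1 kb over all consensus peaks.

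**Figure D4:**
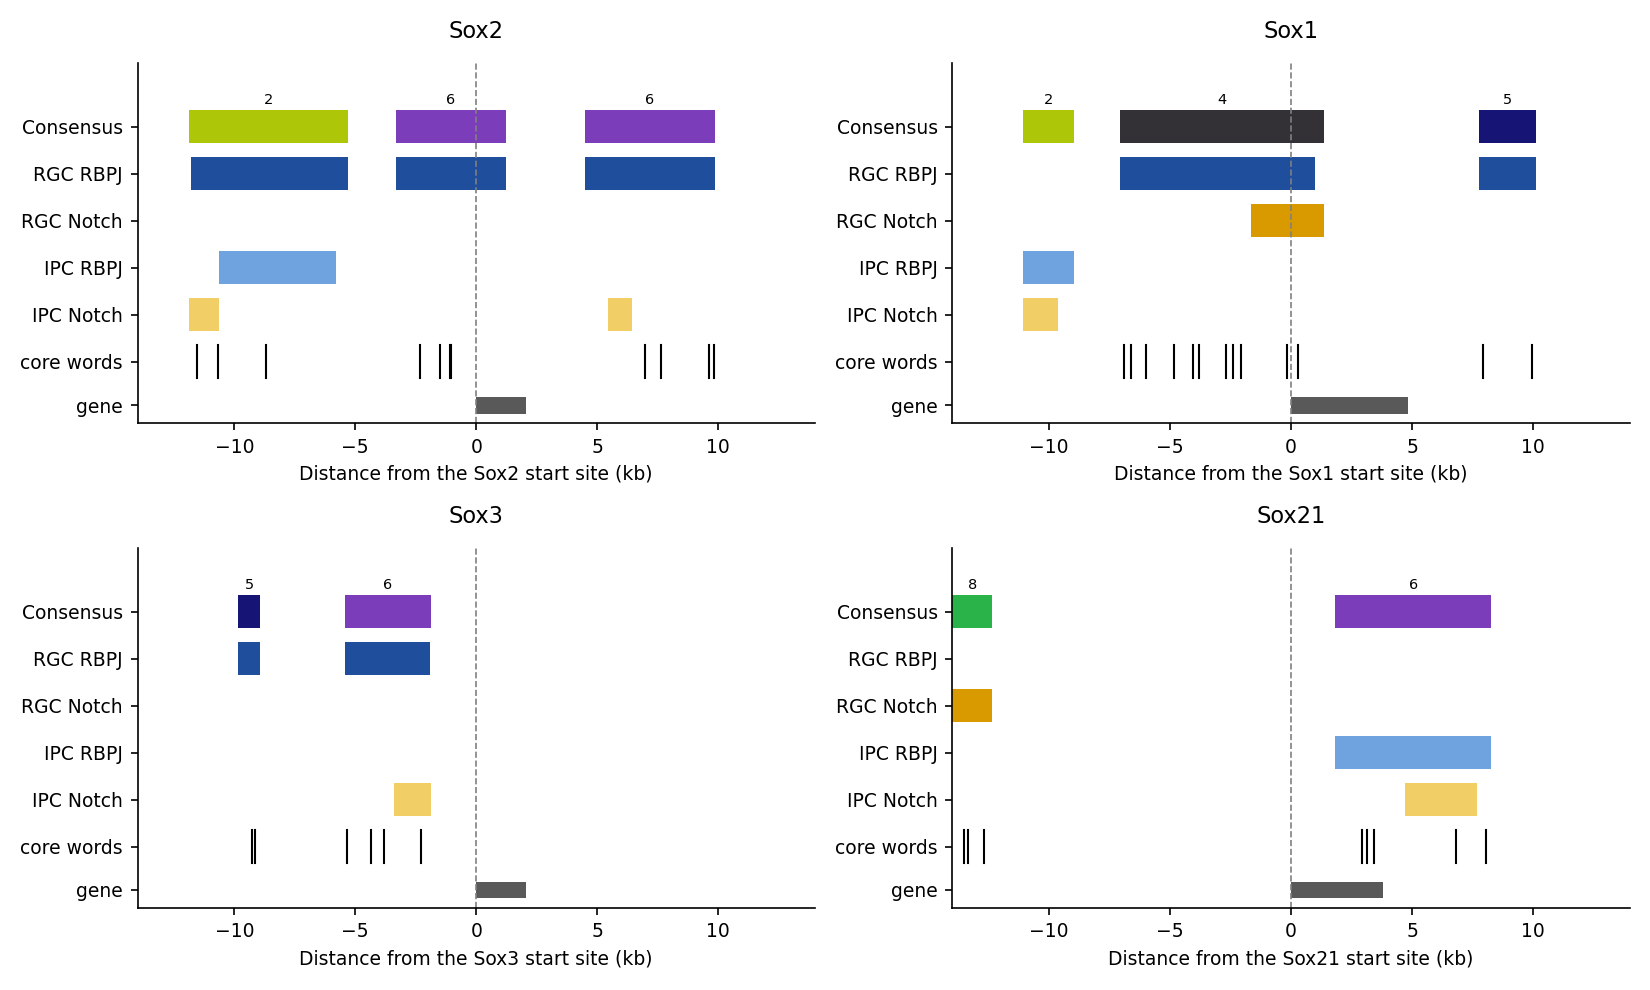
Consensus peaks (coloured and numbered by cluster), called peaks of the 4 lists and RBPJ core words inside consensus peaks (black ticks), within 14 kb of the start sites of Sox2, Sox1, Sox3 and Sox21, on a horizontal axis of distance in kb in the direction of transcription. At Sox2 the IPC Notch and IPC RBPJ peaks of the upstream region lie side by side, at Sox1 the IPC peaks lie upstream of the RGC region, and at Sox21 only IPC peaks lie next to the gene.

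By cluster, 10 SoxB regions fell in cluster 6, or 25.6% (14.6 to 41.1), against 10.8% of all consensus peaks, and 8 of these 10 belonged to Sox2. The other 2 were the regions nearest to Sox3 and Sox21, while Sox1 and Sox14 had 0. A cluster 6 region was nearest to 7.62% of all protein-coding genes and to 3 of the 5 SoxB genes. Without Sox2 the cluster 6 share was 12.5%, so the pooled value rested on that gene. Cluster 2 held 6 regions, or 15.4% (7.25 to 29.7) against 4.76%, from Sox2, Sox1 and Sox3. Cluster 5 held 10 (25.6% against 22.5%) and cluster 8 held 5 (12.8% against 14.4%). Clusters 1 and 4 held 3 each (7.69%, against 10.5% and 9.79%). Cluster 7, which like clusters 2 and 6 stands for both proteins in both cell types, held 2 (5.13% against 11%). Cluster 3, RBPJ alone in IPCs, held 0 of 39 SoxB regions, with an upper Wilson limit of 8.97%, against 16.3% of all consensus peaks.

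**Figure D5:**
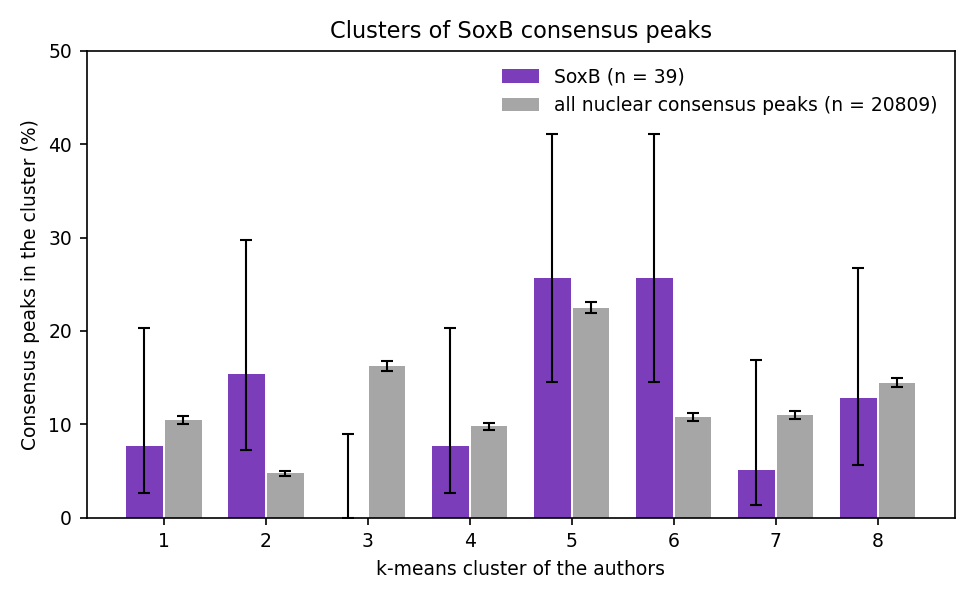
Share of consensus peaks in each of the 8 k-means clusters, in percent, for the 39 SoxB consensus peaks and all 20809 nuclear consensus peaks, with Wilson 95% intervals for counting error. Clusters 2 and 6 stand at 15.4% and 25.6% of SoxB consensus peaks against 4.76% and 10.8%, and cluster 3 is empty for SoxB.

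Calls and clusters did not always name the same lists. Of the 10 cluster 6 regions at SoxB genes, 4 were called for RGC RBPJ only, the Sox2 start site among them, and 1 was called in both RGC lists. The same calls held for 36.6% and 4.64% of all 2241 regions in cluster 6, so the former is common in that cluster. The single Sox14 region was in cluster 1 (Notch alone in RGCs) but was called for RGC RBPJ only, as were 27.4% of the 2185 regions in that cluster. The Sox21 region 12.4 kb upstream was in cluster 8 (RBPJ alone in RGCs) but was called for RGC Notch only, which held for 0.533% of that cluster. The Sox1 region 31.7 kb downstream, called for Notch in both cell types and in cluster 5, was 1 of 4 such regions among 4678. The region nearest to Sox21 (cluster 6) and the region 8.98 kb upstream of Sox1 (cluster 2) were called in both IPC lists and no RGC list. Both clusters stand for both proteins in both cell types, and such calls held for 1.34% and 2.22% of their regions. A peak had to be seen in every pairing, so a missing call does not show missing binding. Which of the readings holds at these regions cannot be read from positions.

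Pooled over the 5 genes and counted over whole peaks, the RBPJ core word TTCCCA was not more frequent in SoxB peaks than around them. The values of Sox3 and Sox21 were nevertheless higher inside peaks than outside. The word TTCCCA, on either strand, occurred 94 times in 107 kb of SoxB consensus peaks, or 0.883 per kb (95% Poisson interval 0.713 to 1.08). The same stretches outside peaks had 1.01 per kb (0.963 to 1.06) and all consensus peaks 1.17 per kb. GC content was 46.4% in SoxB peaks, 43.1% outside them and 46.2% in all consensus peaks, and GATC sites, where Dam can act, numbered 2.85, 2.37 and 2.91 per kb. At least 1 word was present in 29 of 39 SoxB regions, or 74.4%, against 82.9% of all consensus peaks.

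Among the genes, the density was 1.57 per kb in the regions of Sox3 (0.838 to 2.69) and 0.942 outside them, and 1.16 in those of Sox21 (0.690 to 1.84) and 0.853 outside. It was 0.800 per kb in the regions of Sox1 (0.457 to 1.30) and 1.20 outside, and 0.790 in those of Sox2 (0.580 to 1.05) and 1.02 outside. In each of these 4 genes the value outside lay within the counting interval of the regions, and the intervals of the 4 genes overlapped. In the called peaks themselves, IPC Notch peaks at SoxB genes had 1.02 words per kb (0.573 to 1.69), against 1.16 over all peaks of that list, and RGC Notch peaks 0.788 (0.459 to 1.26), against 1.06. RGC RBPJ peaks at SoxB genes had 0.859 words per kb (0.670 to 1.09), against 1.20, and IPC RBPJ peaks 0.561 (0.269 to 1.03), against 1.25. No word was present in 8 of the 31 RGC RBPJ peaks, 1 of the 8 RGC Notch peaks, 2 of the 5 IPC RBPJ peaks and 3 of the 11 IPC Notch peaks. Those of IPC Notch included the peak downstream of Sox2 and the peak 8.98 kb upstream of Sox1. In RefSeq promoters (GRCm38.p6, 250 bases before to 50 after the start), which matched 4 of the 5 genes, Sox1 had 1 word and Sox2, Sox14 and Sox21 had 0, and 25.6% of all 32851 promoters held the word. A match is a description of letters and not evidence of a bound site.

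The SOX family outside SoxB and the partners of SOX2 were examined as lists, to be read against the 38.7% of all protein-coding genes that had any consensus peak and the shares by list given above (30.9%, 11.5%, 16.2% and 6.91%, and 7.62% for cluster 6). Of 15 other Sox genes, 10 had a consensus peak, 9 an RGC RBPJ region, 6 an RGC Notch region, 7 an IPC RBPJ region, 5 an IPC Notch region and 5 a cluster 6 region. Sox6, a SoxD gene, had 30 regions, Sox4 of the SoxC group 24, and Sox9, a SoxE gene of neural stem cells and glia, 23, the same number as Sox2. At Sox9, IPC Notch was called at 8 regions and IPC RBPJ at 6, whereas Sox4 had 2 and 9. All 20 genes on the list of SOX2 partners and targets had a consensus peak, 20 of them an RGC RBPJ region, 11 an RGC Notch region, 17 an IPC RBPJ region, 12 an IPC Notch region and 9 a cluster 6 region. Pou3f3, a POU factor that pairs with SOX2 in neural progenitors, had 29 regions, Gli3, a transcription factor of Hedgehog signalling, 21, and Notch1, the receptor itself, 12, of which 8 were called for IPC Notch. The Notch fusion plasmids carry Notch1 coding sequence, and the RGC plasmids carry the Hes5 promoter. How far plasmid DNA adds to the calls at Notch1 and at Hes5, also on this list, was not tested.

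Sox2 was compared with the other genes of at least 10 consensus peaks, 275 in number, by how its regions were spread over the 8 clusters. Slc14a2, a urea transporter gene, was most alike with a cosine of 0.984, followed by Rad51b, a DNA repair gene, with 0.934 and Hes1, a Notch effector that represses neuronal differentiation, with 0.921. Hes1 had 12 regions, 6 of them in cluster 6 and 3 in cluster 5, where Sox2 had 8 and 4. The cosine describes proportions over 8 clusters and rests on few regions per gene.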

How the data were processed

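The authors aligned the TaDa reads on mm10 and ran MACS2 (also named in the submitters' processing notes) in broad mode on each fusion sample against each Dam-only sample, then applied a false discovery rate filter and retained peaks seen in every pairing. The deposited values are positions in bp: 4 pooled lists, whose score columns are constant, and 1 file of consensus peaks with k-means clusters. There are 0 columns of single samples, so depth per sample is unknown, no replicate could be left out and 0 tests were run. Of 39 samples, 14 fusion samples lie behind the lists, with the 5 RGC and 4 IPC Dam-only samples as controls. Another 16 (full-length Notch, neurons, a ubiquitous promoter) were not used here.

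Positions are printed counted from 1. Distance was taken from the nearest edge of a peak to the start of any transcript of a protein-coding gene (GENCODE M21), ties by midpoint. Overlap counted from 1 bp. Mitochondrial peaks were excluded. Densities refer to sequence closer to a gene's start than to any other protein-coding start. Python 3.11.15, numpy 2.4.6, scipy 1.17.1 and matplotlib 3.10.9 were used. Assignment was checked at random places of the annotation, stretches for random genes to within 1 bp, and word counts on simulated sequence. Each check matched in 500 of 500 cases, with a gene without a stretch counted as matched.

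All 5 members were named, with each peak within 10 kb of a start, in 2 or more lists, nearest on each side or farthest. Lists of other Sox genes and of SOX2 partners were given by counts with 2 to 4 examples, and the 3 genes most like Sox2 by cosine. The members and lists were chosen with earlier results of these data known.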

Additional observations from a re-analysis of the deposited data

How the results depend on the processing

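Of 66 values recomputed under 9 alternatives for 10 results, 49 moved by less than their counting interval (counts: by less than 1.5 times). One start per gene, distance from the midpoint and peaks of at least 1000 bp moved none of the results beyond that. When start sites of all annotated genes, non-coding ones included, were used, 1 consensus peak stayed with a SoxB gene, the one over the Sox2 start: the shares became 100% for RGC RBPJ and for cluster 6 and 0% for RGC Notch, IPC RBPJ, IPC Notch and 2 or more lists, the median distance 0 kb and the density 10.3 peaks per Mb. Peaks within 100 kb numbered 21. Without Sox2 there were 16 peaks, with 12.5% in cluster 6 and a median distance of 27.4 kb in place of 71.2 kb. With at least 50% of the consensus peak covered, the IPC Notch share was 12.8% and the share in 2 or more lists 15.4%. The longer word TTCCCAC, a subset of the shorter, occurred 0.244 times per kb (0.159 to 0.358), against 0.202 in the same stretches outside peaks. TTCCCA occurred 1.1 times per kb (0.681 to 1.68) in the central 500 bp of each peak, against 1.01 outside peaks. Both values were thus higher than outside, but both intervals held the value outside. The cause of the shift in the central 500 bp was not tested. No paired analysis was possible because the files carry no columns of single samples.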

Other observations

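Using all annotated genes, the peaks near SoxB genes were divided among non-coding transcripts. Of the 23 Sox2 regions, 4 were nearest to 1700017M07Rik, 4 to Gm21388, 3 to Gm29135, 3 to Mir6378 and 1 to Sox2ot itself, and of the 4 Sox21 regions 2 were nearest to 4933431J24Rik and 2 to Gm4675. Only the region over the Sox2 start site stayed with a SoxB gene.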
